A study of Homo sapiens with 3 samples.

Results

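The genes described here build and load the replicative helicase at origins of DNA replication. They are MCM2, MCM3, MCM4, MCM5, MCM6 and MCM7, the 6 subunits of the helicase ring, together with MCM10, CDC6, CDT1 and GMNN, 10 genes in all. They were chosen by name from the 27274 gene names of the array, and all probes carrying one of the names were taken, which gave 12 probes of 60 bases. HepG2, an established human hepatocellular carcinoma line, was kept at 0 μM (control) or exposed to 10 μM or 100 μM etoposide, a topoisomerase II poison that leaves DNA double-strand breaks, and RNA was taken at 30 h. The sample labels call the control untreated, whereas the study names DMSO, the solvent, as its control. Each of the 3 conditions had 1 array, and all 3 arrays were on 1 slide. No condition has a replicate, so no test between doses was possible, and effects of the dose and of the single culture, RNA preparation or array cannot be told apart.

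An origin is licensed in G1 phase. The origin recognition complex, CDC6 and CDT1 place the MCM2 to MCM7 ring on DNA as an inactive double hexamer, and the kinases of S phase then recruit CDC45 and the GINS complex, which turn the ring into an active helicase, with MCM10 needed at that step. Geminin, the product of GMNN, binds CDT1 in S and G2 phases and so prevents a second round of licensing. Many of these genes are known E2F targets, and their mRNAs are typical of cycling cells.

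The values are background-subtracted spot intensities, called signals below. For fold changes each array was scaled to the 75th percentile of its probes, a signal of 514 in control cells, 537 at 10 μM and 433 at 100 μM. Precision was read from the 999 probes printed 10 times on each array. The spot SD given with a change is the SD of its log2 value that such repeated spots of like signal imply, and it covers spots of 1 array only. On the arrays, the hepatocyte markers ALB, AFP, APOA1, APOB, TTR, TF, SERPINA1, FGB and HNF4A were all well above background, by the call of the scanner software. Of 4 fibroblast markers, 3 were not well above background on any array, and PDGFRB had signals of 95.6, 67.0 and 22.5 in the order control, 10 μM and 100 μM. The 4 blood markers were above background with a summed signal of 1620, 2050 and 2841 in the same order, mostly CD14 at 100 μM, and the 3 endothelial markers summed to 354 to 530. Whether these bear on the licensing genes was not tested. The p53 targets CDKN1A and MDM2, genes that respond to DNA damage, were 7.94-fold and 7.03-fold above control at 10 μM and 7.07-fold and 3.18-fold above it at 100 μM.

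At 10 μM all 10 licensing genes had a higher scaled signal than in control cells, by a median of 1.41-fold, whereas at 100 μM all 10 were lower, at a median of 0.312 of control. Of the 10, only CDC6 exceeded control more than 2-fold at 10 μM and none lay as far below it, against 3.37% and 1.57% of the 16714 genes well above background on 1 or both of the arrays compared. At 100 μM, 8 were more than 2-fold below control and 0 above, against 3.63% and 6.72% of 16977 genes. CDC6, not well above background there, gave only a bound, so whether it passed 2-fold is not known. Between the doses, 10 μM exceeded 100 μM more than 2-fold for all 10 and the reverse held for 0, against 3.64% and 3.93% of 16791 genes. Over all those genes the median log2 change was -0.04, 0.09 and -0.10 in the 3 comparisons, while over the 10 it was 0.49, -1.68 and 2.09. The 3 comparisons share arrays, so they are views of the same 3 signals. In RNA from a whole culture, fewer cells that express a gene and less RNA per cell cannot be told apart.

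**Figure D1:**
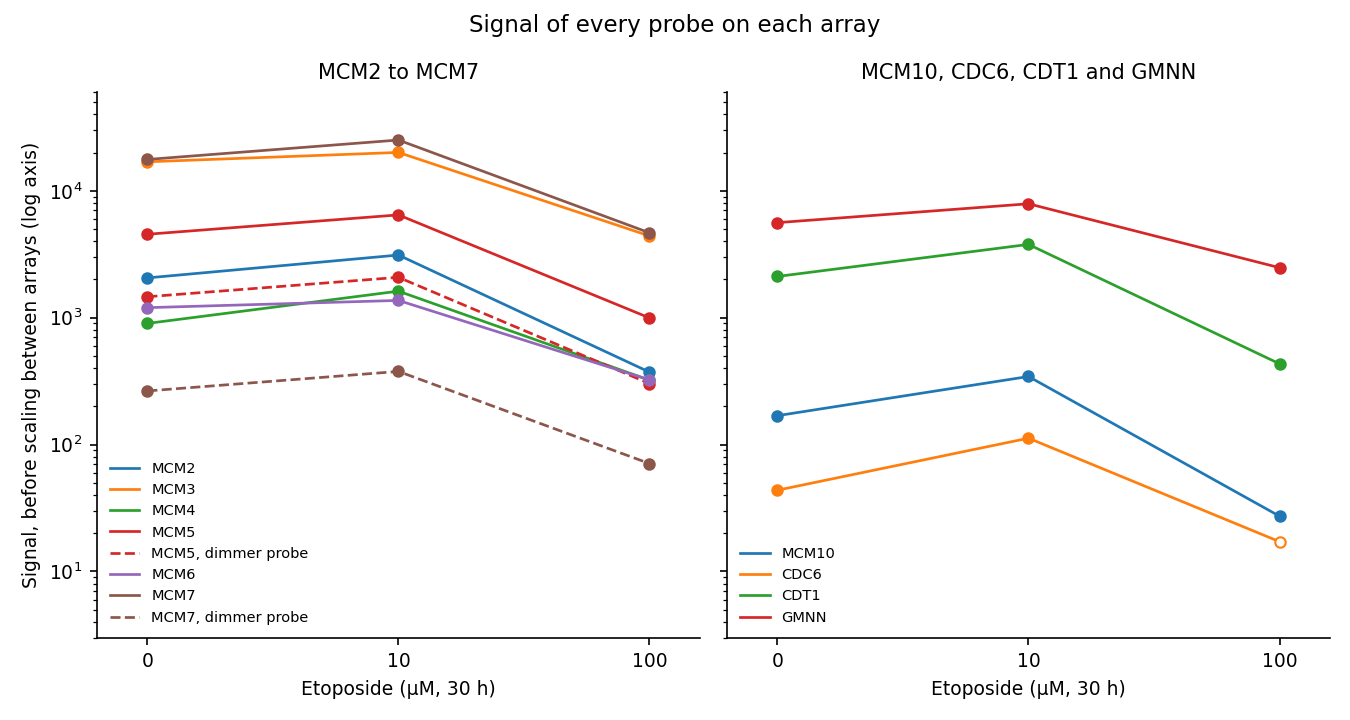
Signal of each of the 12 probes on the 3 arrays (log axis), before scaling between arrays, with MCM2 to MCM7 on the left and MCM10, CDC6, CDT1 and GMNN on the right; dashed lines are second probes and the open point is not well above background. Every line is highest at 10 μM and lowest at 100 μM.

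The loading factors come first. CDC6, an ATPase that joins the origin recognition complex to start loading, was read by 1 probe (NM_001254, hg18 chromosome 17, 35712880 to 35712939). Its signal was 43.7 in control cells, 112 at 10 μM and 17.2 at 100 μM. The 10 μM array was therefore highest, 2.46-fold over control with a spot SD of 0.19 on the log2 scale, the largest of the 10 increases, ahead of MCM10 by less than 2 spot SDs. With normexp background correction, which here added an offset of 50, its log2 change was 0.66. This was below CDT1 at 0.78, MCM10 at 0.76 and MCM4 at 0.69. The offset exceeds the CDC6 signal in control cells and by itself shrinks the changes of dim probes. At 100 μM CDC6 was not well above background, so only a bound can be given there, taken from the lowest signal well above background on that array (21.6). The bound is approximate, since a probe of POLE, a replication fork gene, was not well above background on that array at 35.1. By it, CDC6 was 1.70-fold lower than control and 4.18-fold lower than at 10 μM. With normexp these log2 differences were -0.11 and 0.77 (10 μM over 100 μM), the smallest of the 10 genes.

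CDT1, the partner that brings the MCM ring to the origin, had signals of 2112, 3778 and 433 in control, 10 μM and 100 μM cells (NM_030928, chromosome 16 of hg18 from 87403107 to 87403166). It was 1.71-fold higher at 10 μM and at 0.243 of control at 100 μM, with a spot SD of 0.07 for both. The separation of the doses was 7.04-fold, which differed from that of MCM2 by less than 2 spot SDs.

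GMNN, which encodes the CDT1 inhibitor geminin, had signals of 5607, 7896 and 2476 in the same order (NM_015895, chromosome 6 of hg18 from 24894087 to 24894146). It was 1.35-fold higher at 10 μM and at 0.525 of control at 100 μM, where it had the smallest decrease among the 9 genes measured there. The signal at 10 μM exceeded that at 100 μM 2.57-fold, the smallest such ratio of the 10 genes, and this ratio was below that of the next gene, MCM6, by more than 2 spot SDs.

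The ratio of CDT1 to GMNN is taken within each array, and a scaling factor common to an array does not change it. Processing that is not a single factor per array, such as normexp correction, can change it. Relative to control cells, the ratio was 1.27-fold higher at 10 μM (log2 0.34, spot SD 0.09). At 100 μM it was 2.15-fold lower than in control (log2 -1.11, spot SD 0.10). The ratio was thus highest at 10 μM and lowest at 100 μM, by more than 2 spot SDs on either side of control.

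The 6 ring subunits form an obligate heterohexamer, and their genes lie on different chromosomes. MCM2 (NM_004526, chromosome 3 of hg18 from 128823495 to 128823554) had signals of 2057 in control, 3115 at 10 μM and 372 at 100 μM. It was 1.45-fold higher at 10 μM and at 0.215 of control at 100 μM, the lowest of the ring. MCM3 (NM_002388, chromosome 6 from 52236852 to 52236911) had signals of 16909, 20045 and 4405, which were 1.14-fold and 0.309 of control. Its increase at 10 μM was among the smallest, at 3 spot SDs of 0.06, whereas its decrease was like that of MCM6 and MCM7.

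MCM4 (NM_005914, chromosome 8 from 49050887 to 49050946) had signals of 901, 1618 and 322. It was 1.72-fold higher at 10 μM, the most of the 6 subunits, and at 0.424 of control at 100 μM, the least lowered of the 6. MCM6 (NM_005915, chromosome 2 from 136314687 to 136314746) had signals of 1199, 1367 and 323, or 1.09-fold and 0.320 of control. Its increase at 10 μM, 0.13 on the log2 scale with a spot SD of 0.06, was the smallest of the 10 genes.

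MCM5 and MCM7 were each measured by a pair of probes. The brighter probe of MCM5 (NM_006739) spans 872 bases of chromosome 22 of hg18, from 34149307 to 34150178, so its 60 bases are not contiguous in the genome, and had signals of 4541, 6453 and 995. It was 1.36-fold higher at 10 μM and at 0.260 of control at 100 μM. The dimmer probe, from 34143789 to 34143848, had signals of 1461, 2079 and 303, and gave 1.36-fold and 0.246.

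For MCM7, the brighter probe (NM_182776, chromosome 7 from 99528456 to 99528515) had signals of 17644, 25107 and 4662, or 1.36-fold and 0.314 of control. The dimmer probe (NM_005916, from 99535213 to 99535272) had signals of 265, 377 and 70.9 and gave 1.37-fold and 0.318. Across both genes the probes differed by at most 0.08 on the log2 scale in any comparison, although those of MCM7 differed widely in brightness. For both genes this was within 1 spot SD of the difference, since each probe has a spot SD of 0.06 to 0.13.

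MCM10, which binds the loaded ring and is needed for origin firing, is not a ring subunit despite its name. It had signals of 169 in control, 344 at 10 μM and 27.3 at 100 μM (NM_182751, chromosome 10 of hg18 from 13291998 to 13292057). It was 1.95-fold higher at 10 μM with a spot SD of 0.09 on the log2 scale. At 100 μM it was at 0.192 of control, where the lowest signal called well above background was 21.6, with a spot SD of 0.24. The doses differed 10.2-fold, the largest separation among the 9 genes measured at both, beyond that of CDT1 by more than 2 spot SDs. This depended on the processing. Normexp correction here added 50 to every signal. With it, the log2 difference of MCM10 between the doses was 1.83 rather than 3.35, behind several genes, among them CDT1 at 2.69. The log2 change of MCM10 at 100 μM was then -1.07 rather than -2.38. Only GMNN at -0.94 and CDC6 at -0.11 were then less lowered, and MCM4 was at -1.12. Since the added 50 exceeds the MCM10 signal at 100 μM, its smaller values cannot be put down to the background estimate alone.

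**Figure D2:**
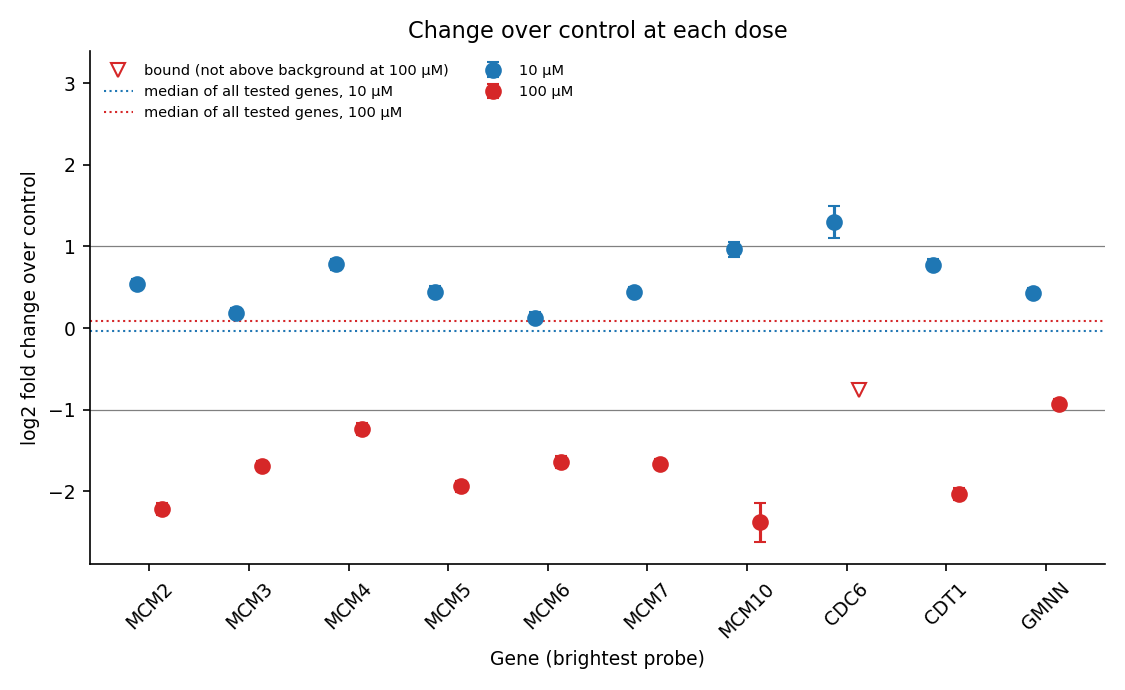
Log2 fold change over control of the brightest probe of each of the 10 genes at 10 μM (blue) and 100 μM (red), with bars of 1 spot SD; the open triangle is a bound and the dotted lines are the medians of all tested genes. All blue points lie above 0 and all red points below it, with CDC6 the only gene past 2-fold (grey lines) at 10 μM. At 100 μM GMNN was short of 2-fold, and CDC6, known only as a bound, could not be placed.

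Ordered by the change at 10 μM, the genes ran CDC6, MCM10, MCM4, CDT1, MCM2, MCM7, MCM5, GMNN, MCM3 and MCM6. Neighbours differed by more than 2 spot SDs at only 2 places, between CDT1 and MCM2 and between GMNN and MCM3. At 100 μM, from the least to the most lowered of the genes measured there, the order was GMNN, MCM4, MCM6, MCM7, MCM3, MCM5, CDT1, MCM2 and MCM10. GMNN and MCM4, MCM4 and MCM6, and MCM3 and MCM5 differed by more than 2 spot SDs, and the other neighbours did not. The place of MCM10 depended on the processing. With normexp correction its log2 change at 100 μM was -1.07, beside -1.12 for MCM4. Within the ring, the fold changes of the 6 subunits spread over 1.57-fold at 10 μM and 1.97-fold at 100 μM. MCM2 gained 1.33-fold on MCM6 at 10 μM (log2 0.41, spot SD 0.09) and lost 1.49-fold on it at 100 μM (log2 -0.58, spot SD 0.11).

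Among all genes compared, those 9 stood at percentiles 0.568 (MCM10) to 4.17 (GMNN) for the change at 100 μM. At 10 μM the 10 ranged from percentile 67.7 (MCM6) to 98.1 (CDC6). Higher at 10 μM and more than 2-fold lower at 100 μM was the pattern of 8 of the 9 licensing genes well above background on all arrays, and of 212 of 15178 genes in all (1.4%). The 9th, GMNN, fell short on the second condition. This pair of conditions follows the values of the licensing genes given above, so the count only describes them and is no test.

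**Figure D3:**
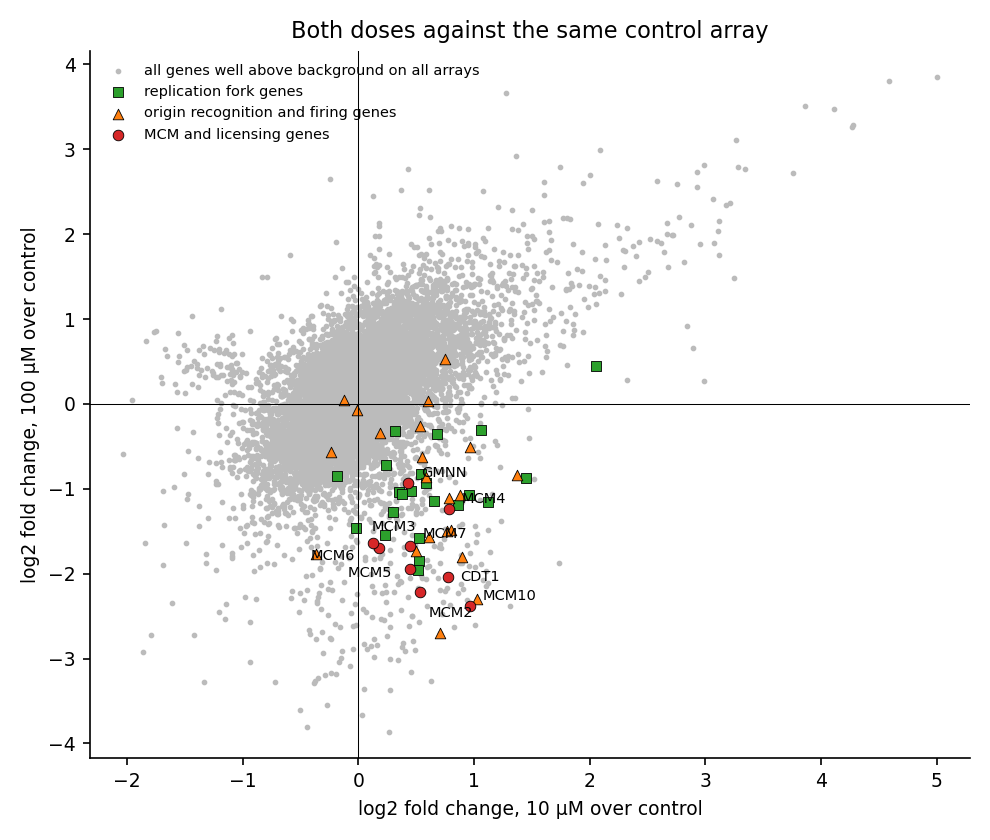
Log2 fold change over control at 10 μM (x axis) and 100 μM (y axis) of every gene well above background on all 3 arrays (grey), with the MCM and licensing genes (red circles, CDC6 not shown because it is a bound), the origin recognition and firing genes (orange triangles) and the replication fork genes (green squares). The red points lie to the right of 0 and below -0.9; both axes use the same control array.

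Promoters of 8 of the 10 genes were taken from a RefSeq table (GRCh38.p14) of 250 bases before each transcription start and 50 after it. Those of MCM4 and MCM5 were not analysed here. These windows were searched on both strands for the E2F letters TTTCCCGC, TTTGGCGC and TTTCGCGC. At least 1 of them was found in 6 of the 8 windows (MCM2, MCM3, MCM6, MCM7, CDC6 and CDT1), against 763 of 27305 promoters (2.79%) in the table. The windows of MCM10 and GMNN did not hold these letters. They occurred in 5 of 18 promoters of the origin recognition and firing genes below and in 8 of 20 of the replication fork genes. CCAAT was found in 5 of the 8 and in 35.7% of all promoters, and the letters TTTGAA or TTCGAA, forms of the cell cycle homology region, in 1 of the 8 (MCM6) and in 16.6% of all. The stretches around the E2F letters are given below to show what the genes share, from RefSeq, 5′ to 3′ on the strand of the gene, with the E2F letters of either strand in capitals.
MCM2 (chr3:127598383-127598440, plus strand): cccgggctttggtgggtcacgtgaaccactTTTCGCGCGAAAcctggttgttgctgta
MCM3 (chr6:52284713-52284946, minus strand): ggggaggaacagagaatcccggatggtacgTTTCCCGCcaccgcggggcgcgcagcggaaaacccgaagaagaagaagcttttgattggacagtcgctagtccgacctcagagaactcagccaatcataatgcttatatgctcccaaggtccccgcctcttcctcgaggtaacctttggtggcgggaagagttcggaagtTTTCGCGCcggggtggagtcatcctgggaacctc
MCM6 (chr2:135876492-135876625, minus strand): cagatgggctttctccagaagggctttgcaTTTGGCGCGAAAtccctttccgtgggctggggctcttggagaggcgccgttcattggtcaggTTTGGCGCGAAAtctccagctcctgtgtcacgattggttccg
MCM7 (chr7:100101369-100101614, minus strand): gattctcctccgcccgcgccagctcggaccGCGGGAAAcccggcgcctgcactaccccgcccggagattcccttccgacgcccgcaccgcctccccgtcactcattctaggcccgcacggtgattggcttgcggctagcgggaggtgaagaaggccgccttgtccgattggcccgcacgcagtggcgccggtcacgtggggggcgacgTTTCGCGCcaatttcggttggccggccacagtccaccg
CDC6 (chr17:40287856-40287908, plus strand): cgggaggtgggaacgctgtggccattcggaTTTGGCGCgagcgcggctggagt
CDT1 (chr16:88803724-88803791, plus strand): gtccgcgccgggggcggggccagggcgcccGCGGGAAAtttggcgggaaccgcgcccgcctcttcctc

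The MCM6 promoter holds the same 12 capital letters at 2 places, each of them TTTGGCGC overlapping TTTCGCGC on the other strand, 152 and 90 bases before the start. In MCM2, TTTCGCGC on both strands overlaps in 1 palindrome just after the start. In MCM3 and MCM7, TTTCGCGC begins 4 and 9 bases before the start, and TTTCCCGC lies 174 and 187 bases before it, on the gene's own strand in MCM3 and on the other in MCM7. CDT1 has TTTCCCGC on the other strand 35 bases before the start. CDC6 has TTTGGCGC just after it. A match of letters is a description of the sequence, and binding was not measured here.

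The partners of the ring at the origin were taken as a list of 22 genes for origin recognition and firing, all on the array and 21 of them well above background on all 3 arrays. At 10 μM 2 of 22 were more than 2-fold higher and none was more than 2-fold lower, against 3.37% and 1.57% of all genes. The median log2 change of the list was 0.66. At 100 μM 11 of 22 were more than 2-fold lower and none was more than 2-fold higher, against 3.63% and 6.72% of all. The median of the list was -0.97. Between the doses 15 of 22 were more than 2-fold higher at 10 μM, against 3.64% of all, with a median of 1.68. With normexp background correction the medians at 100 μM and between the doses were -0.54 and 1.01. The offset of 50 added there shrinks the changes of the dimmer genes of the list.

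Members of the origin recognition complex differed from each other. ORC1, whose protein varies through the cell cycle, had signals of 133 in control, 196.5 at 10 μM and 33.8 at 100 μM, and ORC6 had 441, 701 and 125. They were 1.41-fold and 1.52-fold higher at 10 μM and at 0.301 and 0.336 of control at 100 μM, within the range of the ring subunits. ORC2, ORC3 and ORC4 were at 0.951, 1.03 and 1.03 of control at 100 μM and ORC5 at 0.673. ORC3 was 1.52-fold higher at 10 μM, and ORC2, ORC4 and ORC5 were at 0.992, 0.920 and 0.847. LRWD1, which binds the complex on chromatin, was 1.68-fold higher at 10 μM and 1.44-fold higher at 100 μM.

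CDC45 and the GINS complex complete the active helicase. CDC45 had signals of 3455, 7358 and 592, which was 2.04-fold over control at 10 μM and 0.203 of it at 100 μM. GINS2 had 1377, 2345 and 179, or 1.63-fold and 0.154, the lowest fraction among the 21 genes of the list measured on all arrays. GINS1 and GINS3 were 1.87-fold and 1.71-fold higher at 10 μM and at 0.286 and 0.354 of control at 100 μM. GINS4 differed from the others of its complex, being 2.58-fold higher at 10 μM but only lowered to 0.560 at 100 μM.

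The kinase that fires origins is made of CDC7 and its activator DBF4. CDC7 was 1.72-fold higher at 10 μM and at 0.463 of control at 100 μM. By the brighter of its 2 probes, DBF4 was lower at both doses, at 0.777 and 0.295 of control (signals of 408, 331 and 101). Its paralog DBF4B was at 1.45-fold and 0.837. The firing factors TOPBP1, RECQL4, MTBP, DONSON and WDHD1 were 1.47-fold to 1.95-fold higher at 10 μM and at 0.356 to 0.707 of control at 100 μM. TICRR, named C15orf42 on the array, was 1.69-fold higher at 10 μM and not well above background at 100 μM. There it was 3.07-fold lower by an approximate bound. KAT7, a histone acetyltransferase of licensing, was 1.14-fold higher and at 0.786.

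**Figure D4:**
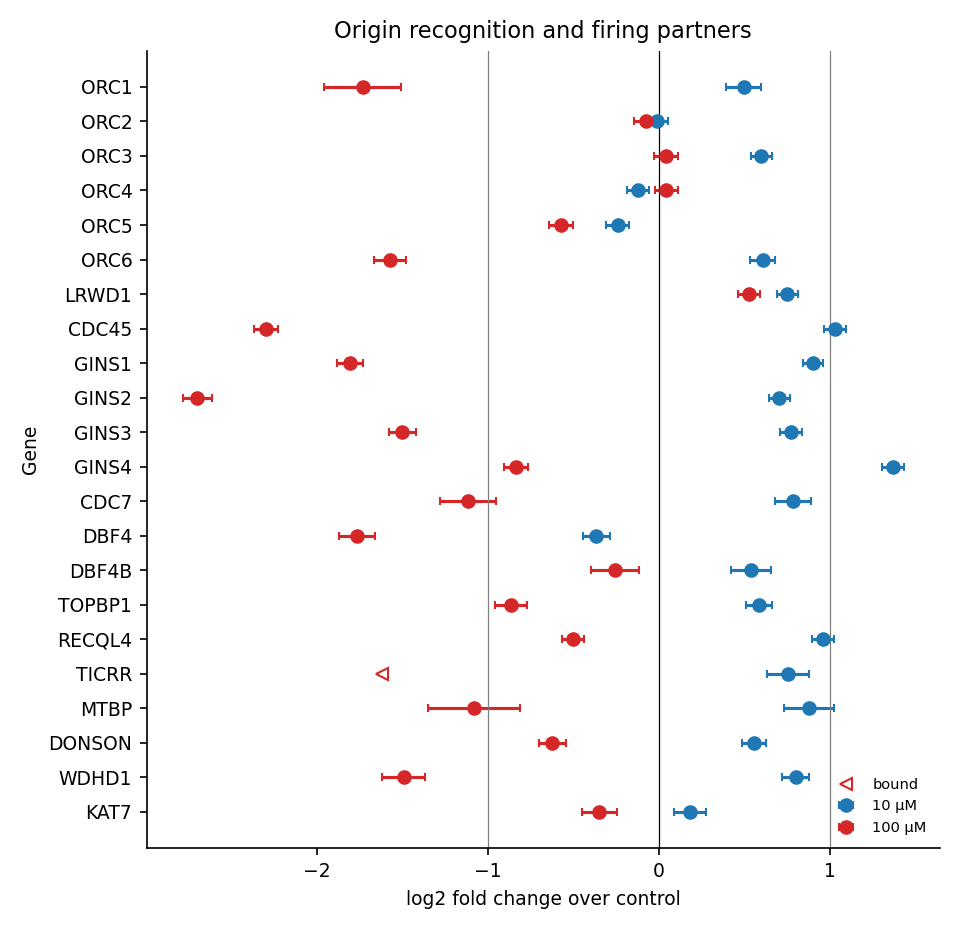
Log2 fold change over control of the 22 origin recognition and firing genes at 10 μM (blue) and 100 μM (red), with bars of 1 spot SD and grey lines at 2-fold. The open triangle is a bound. ORC6, GINS2 and WDHD1 are averages over repeated spots, and their bars, being those of a single spot, are too wide. CDC45 and GINS4 pass 2-fold at 10 μM, and ORC2 and ORC4 show both doses near 0.

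Other proteins that carry the MCM name were measured by a probe each or, for MCMBP, by a pair. MCM8, a helicase of recombination repair, was 1.53-fold higher at 10 μM and at 0.474 of control at 100 μM. Its partner MCM9 had signals of 91.9, 86.7 and 66.4, at 0.904 and 0.858 of control. MCMBP (C10orf119 on the array), which binds the MCM subunits, was 1.15-fold higher and at 0.519.

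Of 14 genes for the turnover of CDT1, CDC6 and geminin, 12 were on the array. Among all genes compared, 3.37% were more than 2-fold higher at 10 μM and 3.63% more than 2-fold lower at 100 μM. Between the doses, 3.64% of all were more than 2-fold higher at 10 μM. DTL, the receptor of the CUL4 ligase that destroys CDT1 on DNA-bound PCNA, had signals of 467, 1212 and 75.3, which was 2.49-fold over control at 10 μM and 0.192 of it at 100 μM, with a log2 difference of 3.70 between the doses. It was the 1 gene of the list more than 2-fold higher at 10 μM. The other subunits of that ligase stayed closer to control, with DDB1 at 1.06-fold and 0.928, CUL4A at 0.897 and 0.780 and CUL4B at 0.721 and 0.673. SKP2, the receptor of the other ligase of CDT1, was lower at both doses, at 0.510 and 0.369, and was with DTL the second gene more than 2-fold lower at 100 μM. USP37, a deubiquitinase, was 1.52-fold higher at 10 μM and at 0.696 of control at 100 μM, and it was with DTL more than 2-fold higher at 10 μM than at 100 μM. The remaining genes included DUSP3 at 1.71-fold and 1.88-fold, FZR1 at 1.37-fold and 1.47-fold, SKP1 at 1.02-fold at both doses, and CUL1, HUWE1 and FBXO31, between 0.865 and 1.09 of control.

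Replication fork genes, a list of 25 that act after the helicase is active, are given for comparison. At 10 μM 6 were more than 2-fold higher (PCNA at 4.17-fold, CLSPN at 2.92-fold, POLA2 at 2.74-fold, and POLE, FEN1 and LIG1), and none was more than 2-fold lower. At 100 μM 14 were more than 2-fold lower and none was more than 2-fold higher. Of these, POLA1, PRIM1, PRIM2, POLD1, POLD3, RFC2, RFC3, RFC4, RFC5, RPA3, FEN1, CHTF18 and TIPIN were at 0.259 (RFC3) to 0.490 (POLD1) of control. POLE2, not well above background there, was 3.82-fold lower by an approximate bound. Between the doses, 22 of the 25 were more than 2-fold higher at 10 μM, all but POLD2, RFC1 and DNA2. Their median log2 changes were 0.52 and -1.03, beside 0.49 and -1.68 for the licensing genes, and whether the lists differ was not tested. PCNA was the only one of the 25 above control at 100 μM, at 1.37-fold. Over all genes compared, 3.37% were more than 2-fold higher and 1.57% lower at 10 μM, and 6.72% higher and 3.63% lower at 100 μM. Between the doses, 3.64% of all were more than 2-fold higher at 10 μM.

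Genes outside the list whose pair of changes over control came nearest to the medians of the licensing genes (0.49 and -1.68), over 3 arrays and among 12038 genes with a RefSeq mRNA, included NUDT1, ORC1L (ORC1), STMN1, ANKRD32, RFC4, TROAP, ORC6L (ORC6), NCAPG2 and PRIM1. Their distance to those medians on the log2 plane ran from 0.03 for NUDT1 to 0.18 for PRIM1. NUDT1, for instance, had signals of 2878, 4210 and 768, and was 1.40-fold higher at 10 μM and at 0.317 of control at 100 μM. Likeness here rests on 2 numbers per gene.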

How the data were processed

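RNA from HepG2 cells at 0, 10 and 100 μM etoposide was Cy3-labeled and read on 1-color Agilent arrays, 1 per condition. The authors deposited the output of Agilent Feature Extraction 10.7.3.1, in which the intensity of each spot is background-subtracted and detrended within the array, without scaling between arrays. The deposited series table held the same values for all 44495 spots of each array. No spot of a non-control probe was saturated.

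Here, outlier spots were left out (9 of 34127 probes had no other spot on an array), log2 intensities were averaged per probe, and the array's 75th percentile over probes was subtracted. A gene was represented by its brightest probe, other probes of the licensing genes being given beside it. A probe not well above background in 1 condition was raised there to the lowest signal well above background, if it lay below that. This gave a bound, which is approximate because some brighter probes were also not well above background. The spot SD was the median over the 50 repeated probes nearest in signal and is that of a single spot, also for probes averaged over repeated spots. Named genes were the 10 licensing genes, every gene of the origin list, genes of the other pathway lists past 2-fold, and the 10 nearest in pattern, of which 1 is not reported here. USP37, FZR1, DUSP3 and other turnover genes, the other MCM proteins and NUDT1 as the example were named in addition, after their values were seen. The licensing genes and all lists were chosen with earlier results of these data known. Probe positions follow the files (hg18), for which no gene annotation was used here. The steps were tested on simulated arrays. Alternatives were other scalings, normexp correction with an offset of 50 (limma 3.58.1, R 4.3.3), and other treatment of outliers, dim and multiple probes. The values of the series table and fold thresholds of 1.5 and 3 were also used. Computation used numpy 2.4.6, pandas 2.3.3 and scipy 1.17.1 under Python 3.11.15.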

Additional observations from a re-analysis of the deposited data

How the results depend on the processing

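No paired analysis was possible because there was a single array per condition, and no value here has a replicate check. Under each of 12 alternatives, fold thresholds aside, all 10 licensing genes kept their sign, above control at 10 μM, below it at 100 μM and higher at 10 μM than at 100 μM (CDC6 could not be given where a signal well above background on all arrays was required). Not all of the 12 could change a sign. The series table held the same values, averaging of probes bore only on MCM5 and MCM7, and the filters for dim probes bore only on CDC6. The median log2 change at 10 μM lay between 0.45 and 0.55. At 100 μM, the median of -1.68 became -1.97 when arrays were centred on their medians, -1.93 with no scaling, -1.86 on the spike-in controls and -1.60 with normexp correction. Between the doses, the median of 2.09 became 2.40 with no scaling, 2.36 when centred on the medians, 2.23 after quantile normalization, 2.02 with the percentile over all spots, 2.32 under spike-in scaling, 1.85 with normexp correction and 2.25 with no filter and no floor. The 1 gene past 2-fold above control at 10 μM (3.37% of all) became 2 without scaling (3.88%) and 2 under spike-in scaling (3.82%). The count was 0 with normexp correction (1.51%) and 0 with only genes well above background on all arrays (2.43%). At a 1.5-fold threshold it was 4 (9.03%) and at a 3-fold threshold 0 (1.29%). The number more than 2-fold lower at 100 μM ranged from 8 to 10, and the share of all genes from 2.47% to 6.96%. At the 3-fold threshold the number was 7 and the share 1.64%. The number higher at 10 μM than at 100 μM ranged from 9 to 10, thresholds included, and the share from 1.88% to 7.49%. Scaling moves all genes together. For probes well above background throughout, the median log2 ratio of 10 μM to 100 μM was -0.10 as reported and 0.21 with no scaling, and that of 100 μM to control 0.07 and -0.17. Genes above control made up 64.9% of those past 2-fold at 100 μM as reported, 37.2% with no scaling, 33.2% with median, 49.8% with quantile and 44.4% with spike-in scaling. Genes higher at 10 μM made up 48.1% of those past 2-fold between the doses, and 77.8%, 74.6%, 65.4% and 71.6% in the same order. Signals near background limit CDC6 and MCM10 at 100 μM, where the normexp offset of 50 exceeds both. Alternatives of the remaining kinds left these results within the spot SD or within 1.5 times.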

Other observations

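The E2F letters searched in the licensing promoters were also counted in the other genes with a promoter in the RefSeq table. They were held by 55 of 357 genes more than 2-fold higher at 10 μM than at 100 μM (15.4%), by 5 of 270 genes more than 2-fold lower (1.85%), and by 394 of all 9311 genes compared (4.23%). For 100 μM over control, 35 of 356 genes more than 2-fold lower held them (9.83%), as did 12 of 552 genes more than 2-fold higher (2.17%) and 401 of 9399 in all (4.27%). For 10 μM over control, it was 16 of 311 genes more than 2-fold higher (5.14%), 3 of 123 more than 2-fold lower (2.44%) and 401 of 9304 in all (4.31%). These shares are of genes matched by symbol, share their arrays, and are given as counts with no test.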
